A study of Mus musculus with 2 samples.

Results

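The nuclei described here are embryonic mouse kidney barcodes with open chromatin at markers of ureteric epithelium, the branching tree that becomes the collecting duct. They were chosen by marker counts from snATAC-seq, which counts transposase insertions into open chromatin for single nuclei. Barcodes with 4000 to 100000 counts were ranked by the share of their counts in peaks over the gene bodies, or the 2 kb upstream, of 8 genes (Ret, Calb1, Wnt11, Wnt9b, Krt8, Gata3, Wfdc2 and Elf5), with the libraries pooled. A barcode was taken if it lay in the top 7% and had a count at 4 or more of the 8 genes. This selected 674 of 20924 barcodes, which are called ureteric-marker nuclei. Part of them, 20.5%, fell in clusters that lacked other genes of this epithelium, as described below. The other barcodes of both libraries are called other nuclei.

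The kidneys were from E15.5 mouse embryos, with 1 library for each group. Both groups carried Wt1 GFPCre/+, a knock-in that places a GFP-Cre fusion at the Wt1 locus and removes the function of that Wt1 copy. Enl-WT kidneys were Enl +/+ Wt1 GFPCre/+. Enl-T1 kidneys were Enl flox-T1/+ Wt1 GFPCre/+, and so had 1 Enl (Mllt1) allele that Cre switches to a small insertion found in Wilms tumour. By the study, Wt1-driven Cre acts in progenitors of the nephron and stromal lineages, and whether it acted in the nuclei described here was not measured. How many embryos went into each library is not stated in the labels or methods, and by the methods their sex was not determined. Each group being a single library, no spread between replicates could be had and no test was run. Every interval below is a 95% interval that covers counting error only.

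The ureteric bud grows out from the nephric duct and branches in response to Gdnf, which is made by the surrounding mesenchyme and received by Ret and its co-receptor Gfra1 at the ureteric tips. Tip cells divide and drive branching, while the trunk behind them differentiates into collecting duct. The trunk sends Wnt9b to the nephron progenitors, which then form nephrons that connect to the tree through the distal tubule. Open chromatin at a gene is not its expression, and levels are given as counts scaled to the same library total (CPM) in the regions that were called in both libraries.

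The Enl-WT library gave 324 of its 9270 barcodes (3.50%, interval 3.13 to 3.89%) and the Enl-T1 library gave 350 of 11654 (3.003%, 2.70 to 3.33%). The parts of the rule ordered the libraries differently. The share of counts alone was passed by 510 barcodes (5.50%) in Enl-WT and by 955 (8.19%) in Enl-T1. Of those, 63.5% in Enl-WT and 36.6% in Enl-T1 had 4 markers or more. Nuclei of Enl-T1 were shallower, with a median of 9023 counts against 14893 in Enl-WT, and 10300 against 15837 among ureteric-marker nuclei. The part of depth in these shares was not tested, and the order of the libraries turned under other forms of the rule. In Enl-WT, 151 of the chosen nuclei had exactly 4 markers, 53 had 6, 13 had 7 and 4 had all 8. In Enl-T1 these numbers were 246, 21, 1 and 0.

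The threshold was 0.0774% of counts in marker peaks. The 10 nuclei just inside it held 0.0774 to 0.0779% and the 10 just outside it, also with 4 markers, held 0.0769 to 0.0773%. The median chosen nucleus held 0.0963% in Enl-WT and 0.105% in Enl-T1, and the median of other nuclei was 0.0235% and 0.0229%. Because 186 barcodes of Enl-WT and 605 of Enl-T1 passed the share but not the number of markers, the other nuclei may include ureteric epithelium. No barcode sequence was chosen in both libraries, and 5 chosen nuclei had a barcode that the other library also listed. Doublets were not removed. A marker rule of another kidney cell type was also passed by 23 chosen nuclei in the Enl-WT library and by 12 in the Enl-T1 library.

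The regions that were far more open in ureteric-marker nuclei than in other nuclei are described next by their sequence. The rule regions themselves were left out. Of 11295 regions with at least 20 CPM in the chosen nuclei of both libraries, 1205 (10.7%) were at least 2-fold above other nuclei in both. Of the 5 with the largest ratio, by the smaller of the values of the libraries, 4 are printed here by their central 300 bases, to show what such a region looks like, with motif matches in capitals. Coordinates are of mm10 and the plus strand is printed.
Phactr1 promoter, chr13:42681332-42681631: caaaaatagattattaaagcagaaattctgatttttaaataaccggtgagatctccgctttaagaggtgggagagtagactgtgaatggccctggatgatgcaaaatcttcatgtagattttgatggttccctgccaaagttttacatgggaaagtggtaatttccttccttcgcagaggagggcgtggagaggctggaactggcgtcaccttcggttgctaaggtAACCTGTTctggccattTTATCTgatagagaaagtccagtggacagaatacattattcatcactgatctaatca
Slc35f3 gene body, chr8:126391610-126391909: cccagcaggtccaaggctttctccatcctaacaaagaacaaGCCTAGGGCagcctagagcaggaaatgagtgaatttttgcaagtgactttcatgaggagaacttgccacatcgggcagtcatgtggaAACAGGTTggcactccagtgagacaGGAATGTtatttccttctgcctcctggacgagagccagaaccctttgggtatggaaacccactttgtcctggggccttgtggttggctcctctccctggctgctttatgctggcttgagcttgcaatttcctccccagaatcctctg
Man1a gene body, chr10:54018051-54018350: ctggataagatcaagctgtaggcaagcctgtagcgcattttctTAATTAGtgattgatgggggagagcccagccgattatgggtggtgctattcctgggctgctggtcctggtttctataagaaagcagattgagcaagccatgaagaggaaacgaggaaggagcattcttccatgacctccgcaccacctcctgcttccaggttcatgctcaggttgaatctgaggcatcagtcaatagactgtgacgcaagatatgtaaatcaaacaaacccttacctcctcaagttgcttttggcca
intergenic, nearest gene Rprm, chr2:53851058-53851357: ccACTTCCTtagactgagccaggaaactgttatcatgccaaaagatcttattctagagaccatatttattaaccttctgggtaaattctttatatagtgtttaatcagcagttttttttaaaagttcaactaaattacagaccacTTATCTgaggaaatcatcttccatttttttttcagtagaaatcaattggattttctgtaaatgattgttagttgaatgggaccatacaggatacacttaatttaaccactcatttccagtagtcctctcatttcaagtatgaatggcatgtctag

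The first is 31 bp from a transcription start site (TSS) of Phactr1, an actin and phosphatase regulator, and the region measured 23.5 CPM in ureteric-marker nuclei of Enl-WT and 23.2 CPM in Enl-T1. Other nuclei measured 3.05 and 3.26 CPM, so the log2 ratio was 2.95 in Enl-WT and 2.84 in Enl-T1. Its window holds a match for the grainyhead-like (GRHL) motif AACCNGTT at base 227 and one for the GATA motif AGATAA at base 244. The region in Slc35f3, 30.8 kb from the nearest TSS (Coa6), measured 25.2 and 23.2 CPM against 3.36 and 3.38 CPM in other nuclei. Its window holds GRHL, AP-2 and TEAD matches. The region in Man1a, 41.1 kb from its nearest TSS, measured 29.5 and 36.9 CPM against 4.35 and 5.37 CPM. It holds a single match, to the homeobox motif CTAATTA. The last lies between genes, 234 kb from Rprm, and measured 27.6 and 33.4 CPM against 4.22 and 4.95 CPM. Its window holds a GATA and an ETS match. None of these 4 regions reached 5 CPM in endothelial or nephron progenitor nuclei of either library, which were chosen by the same form of rule with their own markers. Distal tubule nuclei were intermediate, at 5.36 to 16.1 CPM over these regions and both libraries.

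The regions more open in ureteric-marker nuclei were mostly away from genes' starts. Within 2 kb of a TSS lay 27.7% of the 1205 regions (interval 25.2 to 30.3%), against 81.9% of all 11295 regions of that level and 22.8% of all 110674 shared regions outside the rule. The 20 CPM minimum was set on the chosen nuclei alone, so the contrast with 81.9% depends on that filter. So does the share of 10.7% given above. The genes nearest to the largest numbers of the 1205 regions were Tfcp2l1, a collecting duct transcription factor, with 4 regions, and 16 genes with 3 each, among them Krt18, Kcnq1, Nedd4l, Rbm47 and Tfap2a.

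Letter matches to motifs, a list made after the leading genes were seen, were counted in 300-base windows of the 871 regions beyond 2 kb from a TSS, on both strands. GRHL matches stood in 9.99% of them (8.08 to 12.2%), against 2.41% of all 85350 shared regions beyond 2 kb. Grainyhead-like factors organise epithelial adhesion and tight junctions.

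AP-2 matches (GCCNNNGGC) stood in 15.0% of the ureteric-marker regions against 8.95% of all, AP-1 matches (TGANTCA) in 15.8% against 11.3% and TEAD matches (ACATTCC) in 9.64% against 6.25%. The shares of GATA (17.2% against 15.3%), ETS (AGGAAGT, 10.4% against 10.2%) and homeobox matches (CTAATTA, 2.30% against 3.29%), and of TCAGGTTT, the motif of the Six2 family (2.76% against 1.89%), had intervals that reached the share of all regions. Posterior Hox matches (TTTATTG) were fewer, at 4.59% against 6.72%. Forkhead matches (TGTTTAC) stood in 3.79% (2.62 to 5.28%) against 5.34%. Motifs were counted separately and may overlap in a window. The mean GC content was 51.4% in the ureteric-marker regions and 48.1% in all, and its part in the shares was not tested.

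**Figure D1:**
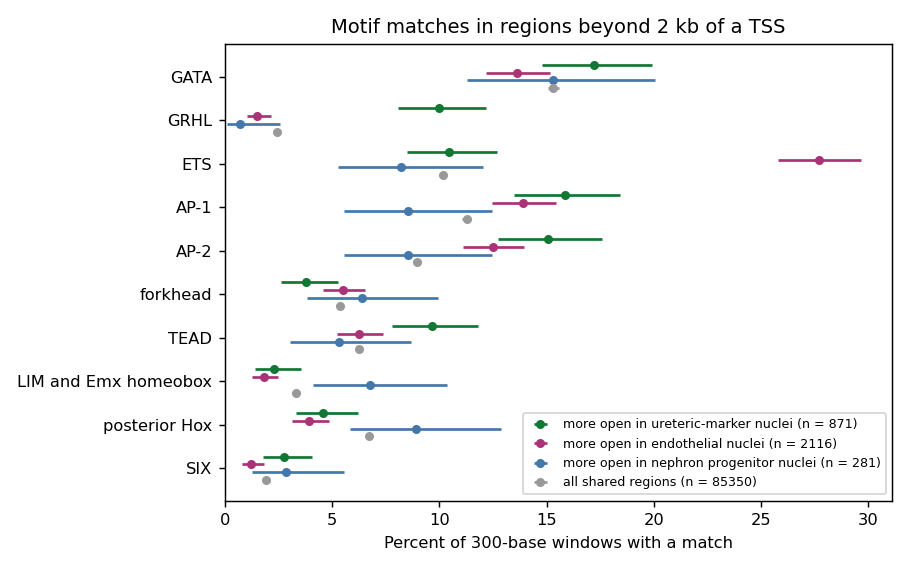
Percent of 300-base windows with a match (x axis) for 10 motifs (y axis) in regions beyond 2 kb of a TSS that were at least 2-fold more open in ureteric-marker, endothelial or nephron progenitor nuclei, and in all shared regions. Points are shares and bars their exact binomial intervals. GRHL matches are most frequent in ureteric-marker regions (9.99%), and ETS matches in endothelial regions (27.7%).

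The same count in regions of other cell types gave other shares for some motifs. GRHL matches stood in 1.51% of 2116 endothelial regions and 0.712% of 281 nephron progenitor regions. ETS matches stood in 27.7% of endothelial regions. In promoters, the 334 ureteric-marker regions within 2 kb of a TSS held GRHL matches in 8.08% (5.40 to 11.5%) against 1.96% of all 25283 such regions. AP-2 matches did not differ there beyond counting error (22.2% against 23.2%).

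The 8 markers of the rule had to be high, so their levels are a description. All 8 were at least 2-fold above other nuclei in both libraries. Wnt9b, the trunk signal to nephron progenitors (chr11:103727364-103749821), measured 188 CPM in Enl-WT and 211 CPM in Enl-T1 against 29.2 and 28.2 CPM in other nuclei. Calb1, which encodes the calcium-binding protein calbindin, measured 56.5 and 78.4 CPM against 9.93 and 11.4 CPM. At the other end, Wnt11, a tip signal, measured 105 and 110 CPM against 52.4 and 52.7 CPM. Per kb of peak, which allows genes to be compared, the levels were highest for Wnt9b (51.9 CPM per kb in Enl-WT and 58.8 in Enl-T1) and Wfdc2 (52.3 and 56.0) and lowest for Ret (22.7 and 26.9) and Wnt11 (22.8 and 25.7).

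To see a marker that did not choose its own nuclei, each was left out in turn and nuclei were chosen by the other 7. Wnt9b then measured 106 CPM in the chosen nuclei of Enl-WT and 111 CPM in Enl-T1, and was above the remaining nuclei by a log2 ratio of 1.67 (1.44 to 1.90) and 1.75 (1.45 to 2.03). Calb1 was above by 1.60 (1.22 to 1.96) and 1.21 (0.75 to 1.66). Elf5, Krt8, Gata3 and Wfdc2 lay between 0.58 and 0.99 in both libraries, with intervals above 0. Ret did not separate from the remaining nuclei beyond counting error, at 41.8 CPM against 33.5 CPM in Enl-WT and 39.1 against 35.4 CPM in Enl-T1. Wnt11 measured 53.6 against 54.4 CPM and 46.7 against 54.8 CPM. For Ret and Wnt11, both tip genes, the intervals included 0 in both libraries. With 3 of the other markers required in place of 4, Ret in Enl-WT lay at 0.36 (0.09 to 0.62), above 0.

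**Figure D2:**
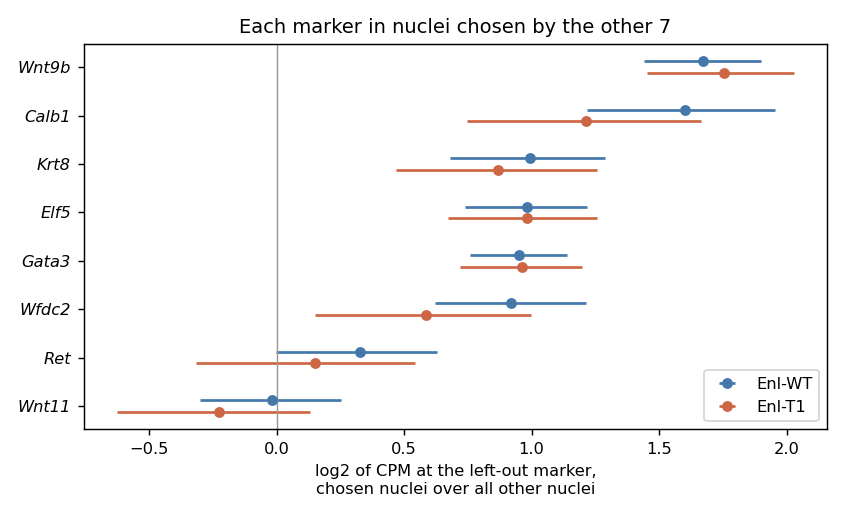
Log2 ratio of CPM (x axis) at each of the 8 marker genes (y axis) in nuclei chosen by the other 7 markers over all other nuclei, with 1 point per library and exact counting intervals. Wnt9b and Calb1 are highest, and the intervals of Ret and Wnt11 include 0 in both libraries.

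Genes that the rule did not use served as the check of the label. Over all 16725 genes measured, 335 (2.00%) were at least 2-fold above other nuclei in both libraries and 276 (1.65%) at least 2-fold below. Of 23 independent ureteric epithelium genes, 11 were at least 2-fold above and none was below, and their median log2 ratio was 1.12 in Enl-WT and 1.29 in Enl-T1. Of 19 epithelial adhesion genes and renal epithelial regulators, 13 were at least 2-fold above, with medians of 1.31 and 1.55. Distal tubule nuclei came close over the same genes. The independent ureteric genes summed to 1911 CPM in ureteric-marker nuclei of Enl-WT and 1739 CPM in Enl-T1, to 1763 and 1416 CPM in distal tubule nuclei, and to 977 and 875 CPM in other nuclei. The epithelial genes summed to 1431 CPM against 1225 CPM in distal tubule nuclei of Enl-WT, and the trunk genes to 593 against 562 CPM.

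The genes that stood out most were junction and epithelial surface genes. Cldn8, a claudin of collecting duct tight junctions (chr16:88560828-88563183), measured 35.8 CPM in Enl-WT and 38.3 CPM in Enl-T1 against 6.83 and 7.35 CPM in other nuclei, a log2 ratio of 2.39 in both. Esrp1, which directs epithelial splicing (chr4:11331933-11386783), measured 113 and 99.0 CPM against 25.8 and 21.5 CPM, with log2 ratios of 2.14 and 2.21. The claudin gene Cldn3 had log2 ratios of 2.004 and 2.098. Shh, a signal of ureter and collecting duct epithelium, measured 40.3 and 32.0 CPM against 9.99 and 7.93 CPM. Fxyd4, a subunit of the sodium pump in collecting duct, measured 20.04 and 23.2 CPM against 4.11 and 5.46 CPM. Distal tubule nuclei lay between for these 5 genes. They measured 14.8 CPM in Enl-WT and 32.1 CPM in Enl-T1 at Cldn8, and 78.4 and 61.6 CPM at Esrp1. At Shh they measured 21.9 and 26.8 CPM, at Cldn3 35.65 and 21.4 CPM, and at Fxyd4 8.15 and 10.7 CPM. Others among the leading genes were Rnf186, Mfsd6l, Smim6 and 9230102O04Rik, the last of which overlaps Gata3 and shares its regions, and so was in part chosen by the rule.

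The adhesion genes Cdh1 (log2 ratios of 1.505 and 1.67) and Epcam (1.68 and 1.55), and the regulators Grhl2 (1.12 and 0.96), Elf3 (1.31 and 1.60), Ehf (1.01 and 1.44) and Emx2 (1.21 and 1.29), were also higher. Regulators that nephrons share were less so, with Pax2 at 0.80 and 0.48 and Pax8 at 0.59 and 0.98. Of 10 measured trunk and collecting duct genes outside the rule, 4 were at least 2-fold above in both libraries (Krt19, Krt7, Aqp3 and Tfcp2l1), with a list median of 1.03 and 1.12. Of 10 tip genes outside the rule, only Slco4c1, a transporter, was at least 2-fold above, at 1.92 and 1.75, and the list median was 0.28 and 0.26. Gfra1 stood at 0.71 and 0.54, and Etv4 and Etv5, targets of Ret signalling, at 0.29 and 0.27 in Enl-WT and 0.41 and 0.17 in Enl-T1. Of 8 measured urothelium genes, Foxa1 alone was at least 2-fold above, at 1.22 and 1.10.

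Branching and Wnt genes were not set apart. Of 13 measured genes of the Gdnf, Ret and Fgf signal, none was at least 2-fold above in both libraries, and Fgf7, a stromal ligand, was below at -1.21 and -1.49. Of 16 Wnt pathway genes outside the rule, none was 2-fold above or below in both, and Wnt7b, a trunk signal, came nearest at 0.99 and 1.11. Of 7 cystic kidney genes, Pkhd1, which encodes fibrocystin, was above at 1.03 and 1.05. The annotated body of Fgfr2 spans 206 shared regions, so its level describes a wide part of chromosome 7 and is not read as that of the gene.

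**Figure D3:**
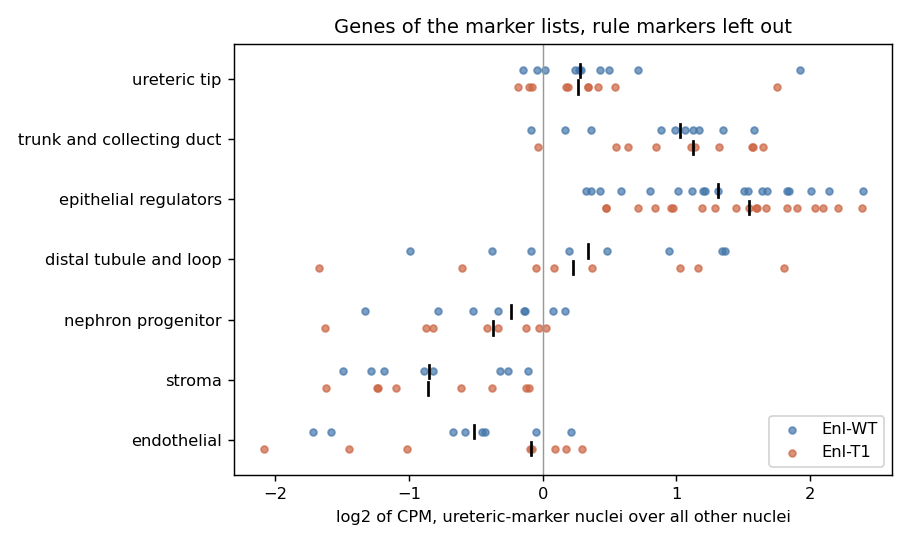
Log2 ratio of CPM in ureteric-marker nuclei over other nuclei (x axis) for the genes of 7 lists (y axis), with 1 point per gene and library and a black bar at each list's median. Epithelial regulators lie highest (medians of 1.31 in Enl-WT and 1.55 in Enl-T1), tip genes have low medians (0.28 and 0.26) with Slco4c1 far above, and stroma genes lie below 0.

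Markers of stroma and nephron progenitors lay below their level in other nuclei, whereas early nephron and distal tubule markers lay somewhat above. Endothelial markers lay below in Enl-WT and near the level of other nuclei in Enl-T1. Proximal tubule genes had medians of -0.35 in Enl-WT and 0.03 in Enl-T1, and podocyte genes -0.18 in each. Of 8 stroma genes, 3 were at least 2-fold below in both libraries and none above (median -0.85 in each). Of 8 endothelial genes 2 were below and none above, with medians of -0.52 in Enl-WT and -0.09 in Enl-T1. Nephron progenitor genes had medians of -0.24 and -0.37. The summed stroma list measured 236 CPM in Enl-WT and 245 CPM in Enl-T1 against 421 and 433 CPM in other nuclei. Wt1, a gene of nephron progenitors and podocytes, measured 30.4 and 33.1 CPM against 76.5 and 68.1 CPM. The early nephron list had medians of 0.30 and 0.37, as high as those of the tip list, and the distal tubule list 0.34 and 0.22. Of the latter, the regulators Pou3f3 (1.34 and 1.80) and Tfap2b (1.36 and 1.16) were at least 2-fold above and Sim1 stood at 0.94 and 1.03, while the loop transporter gene Slc12a1 stood at -0.38 and -1.67. Distal tubule nuclei chosen by their own markers measured 837 and 921 CPM over that list, against 315 and 274 CPM here. Ptprc, an immune marker, and Th, a sympathetic one, were also at least 2-fold above, without the rest of their lists, whose medians were at most 0.27. Tyrobp and Fcer1g of the immune list and Hand2 and Sox10 of the sympathetic list had no shared region. Whether nuclei of other types contribute to these levels was not tested.

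Clustering of the 674 nuclei on all shared regions split them into 5 clusters, not all of which carried the label. Clusters 0 (262 nuclei) and 1 (213 nuclei) made up 70.5% of the nuclei. The independent ureteric genes summed to 2058 CPM in cluster 0 and 2087 CPM in cluster 1, against 926 CPM in other nuclei, and these clusters are ureteric epithelium-like. Cluster 0 had the higher sum of tip genes, at 855 CPM against 567 CPM in cluster 1 and 555 CPM in other nuclei. Cluster 1 had more trunk and collecting duct genes, at 743 CPM against 602 CPM, and more urothelium genes, at 366 CPM against 246 CPM.

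Named genes described the same difference, within Enl-WT to keep depth alike. Slco4c1 measured 43.5 CPM in cluster 0 and 28.2 CPM in cluster 1, and Aldh1a1, a retinoic acid enzyme among the leading genes of cluster 0, measured 41.5 and 16.9 CPM. Wnt11, a rule marker, measured 125 and 64.0 CPM, but was higher in clusters 2 and 4, at 152 and 142 CPM. In the other direction, Wnt7b measured 60.5 CPM in cluster 0 and 139 CPM in cluster 1, Foxa1 27.5 and 75.3 CPM, and Fxyd4 9.50 and 62.1 CPM. Foxa1 and Fxyd4 were among the genes that defined cluster 1. These genes helped to form the clusters, so their levels are no test.

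Clusters 2 (85 nuclei) and 4 (53 nuclei) went against the label. Their rule markers were high, as the choice required, yet the independent ureteric genes summed to 976 and 965 CPM, close to the 926 CPM of other nuclei. In Enl-WT, Esrp1 measured 9.67 CPM in cluster 2 and 39.6 CPM in cluster 4, against 135 CPM in cluster 0. Genes leading cluster 2 included Rspo1, Tmem132d and Nostrin, its nephron progenitor list summed to 299 CPM against 195 CPM in other nuclei, and Six2 measured 77.3 CPM in Enl-WT against 25.5 CPM in cluster 0. Genes leading cluster 4 included Fap, a fibroblast surface protease, Ldb2 and Vstm4, and its stroma list summed to 514 CPM against 427 CPM. Its endothelial list (389 against 333 CPM) and podocyte list (486 against 424 CPM) were raised as well. Together clusters 2 and 4 held 53 nuclei (16.4%) of the chosen nuclei of Enl-WT and 85 (24.3%, 19.9 to 29.1%) of those of Enl-T1, and made up 20.5% of the selection.

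Cluster 3 had 57 nuclei of Enl-WT (17.6%, 13.6 to 22.2%) and 4 of Enl-T1 (1.14%). It had the epithelial program, with 1883 CPM over the independent ureteric genes, and was led by Hoxa10, Hoxa11, Hoxa9, Sall1 and Car4. It was left unnamed because it was nearly a cluster of 1 library. Its nuclei of Enl-WT had a median of 16337 counts, against 14179 to 15792 in the other clusters of that library. After thinning every nucleus to 2000 fragments, a setting chosen after seeing the data, the nuclei formed 2 clusters and none matched cluster 3. A difference between libraries in this cluster and a difference between the mutant and the wild type cannot be told apart.

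The genes leading cluster 3 showed a feature of the ureteric epithelium-like nuclei, chosen here after their values were seen. Hoxa9, Hoxa10, Hoxa11 and Hoxd11, posterior Hox genes, and Sall1, a transcription factor of nephron progenitors, were low in clusters 0 and 1 compared with nephron lineage nuclei. In Enl-WT, Hoxa9 measured 11.99 and 12.2 CPM in clusters 0 and 1, against 100 CPM in cluster 3, 82.5 CPM in distal tubule nuclei, 75.4 CPM in nephron progenitor nuclei and 92.8 CPM in all other nuclei. Hoxa11 measured 3.998 and 3.76 CPM, against 45.4 CPM in cluster 3 and 29.2 CPM in other nuclei. Sall1 measured 9.50 and 7.53 CPM, against 69.8 CPM in cluster 3 and 97.3 CPM in distal tubule nuclei, but endothelial nuclei were low as well, at 10.1 CPM. Endothelial nuclei were also low at Hoxa11 (14.7 CPM) and Hoxd11 (15.7 CPM), though not at Hoxa9 (80.9 CPM).

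Both libraries showed this over clusters 0 and 1 combined. Relative to other nuclei, Hoxa9 lay at a log2 ratio of -2.92 (-3.74 to -2.32) in the Enl-WT library and -2.48 (-3.24 to -1.90) in the Enl-T1 library, Hoxa10 at -1.92 and -2.11, Hoxa11 at -2.84 and -2.91, Hoxd11 at -1.99 and -2.02 and Sall1 at -2.98 and -2.06. Hoxb7, a more anterior Hox gene whose promoter is widely used to mark the ureteric bud, lay above other nuclei at 0.47 and 0.65, but endothelial nuclei were as high (53.0 CPM in Enl-WT, against 49.5 and 55.5 CPM in clusters 0 and 1). Cluster 3 lacked some other marks of clusters 0 and 1 and kept others. In Enl-WT, Cldn8 measured 9.31 CPM there against 44.0 and 60.2 CPM in clusters 0 and 1, and Slco4c1 measured 9.31 CPM. The rule markers Wnt9b (182 CPM), Gata3 (213 CPM) and Calb1 (87.2 CPM) were as high as in those clusters or nearly so. They helped to choose the nuclei, so their levels are a description. Epcam, which the rule did not use, measured 109 CPM in cluster 3, against 95.4 and 96.9 CPM in clusters 0 and 1. Also outside the rule, Tfcp2l1 measured 153.5 CPM against 162.4 and 152.4 CPM, and Esrp1 122 against 135 and 127 CPM. Shh measured 44.2 CPM in cluster 3, against 44.0 and 55.5 CPM.

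**Figure D4:**
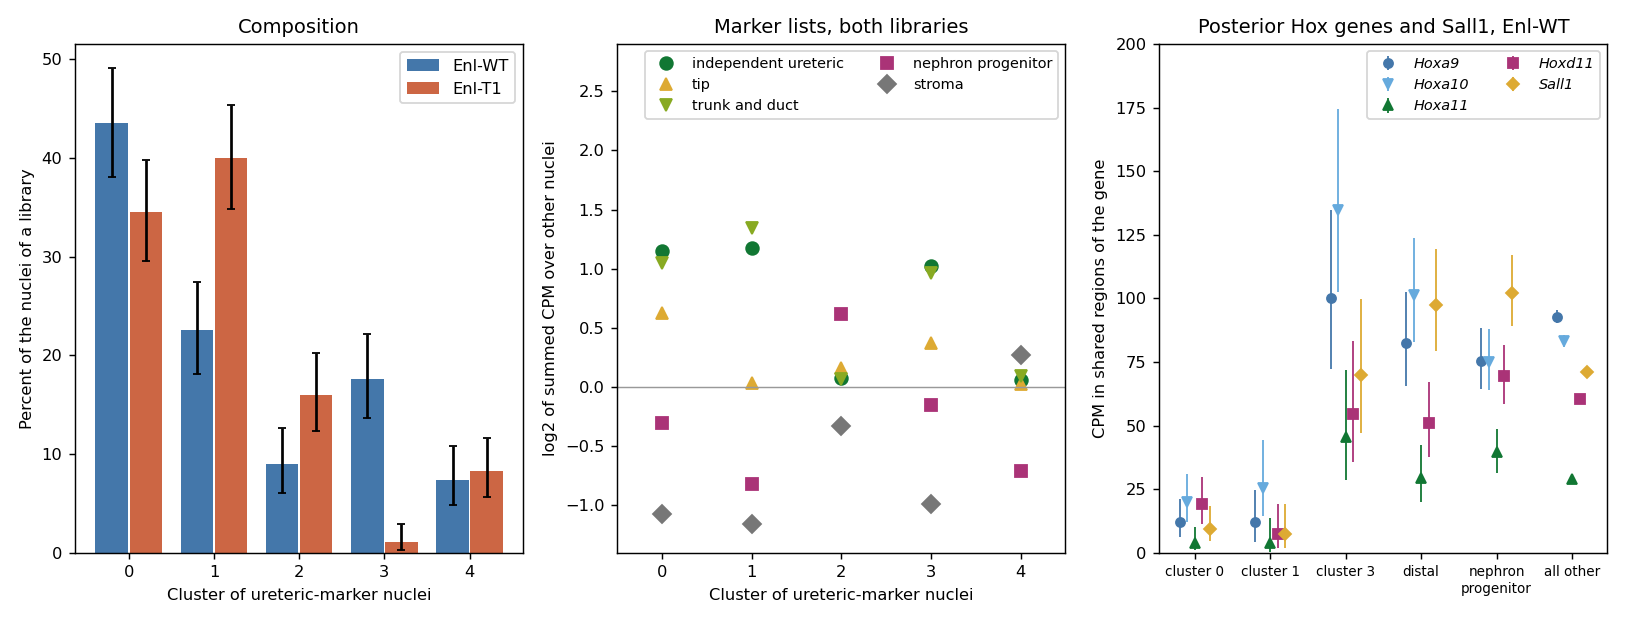
Left, percent of each library's ureteric-marker nuclei in clusters 0 to 4, with exact binomial intervals. Middle, log2 ratio of the summed CPM of 5 marker lists in each cluster over other nuclei. Right, CPM in Enl-WT at 4 posterior Hox genes and Sall1, with exact Poisson intervals, by cluster and comparison nuclei. Clusters 2 and 4 lack the independent ureteric genes, cluster 3 is nearly all Enl-WT, and the Hox genes are low in clusters 0 and 1 (Hoxa9, 11.99 and 12.2 CPM).

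The comparison of the libraries within these nuclei asks whether ureteric chromatin differed in kidneys whose neighbouring lineages carried mutant Enl. Of 11809 genes with at least 200 counts in the chosen nuclei, 98 (0.830%) were at least 1.5-fold higher in Enl-T1 and 170 (1.44%) at least 1.5-fold lower. The median log2 ratio of Enl-T1 over Enl-WT was -0.03, and 5% of genes lay below -0.42 and 5% above 0.36. The same genes in the far more numerous other nuclei had a median of -0.04, with 9 past 1.5-fold higher and 48 lower. Of the 98 genes, 1 was also past 1.5-fold in other nuclei, and of the 170 genes, 16 were. In clusters 0 and 1 alone, 83 of 9206 genes (0.902%) were past 1.5-fold higher and 161 (1.75%) lower.

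Over all ureteric-marker nuclei, no gene of the ureteric lists with 200 counts was past 1.5-fold in either direction. This held for 9 tip genes (median -0.20), 8 trunk and collecting duct genes (0.09), 18 epithelial regulators (-0.04), 4 urothelium genes (0.15), 10 branching signal genes (-0.16), 14 Wnt pathway genes (0.09) and 6 cystic kidney genes (0.01). With background shares this low, a count of 0 in lists of this size says little about them. In clusters 0 and 1 alone, Hsd11b2, a steroid enzyme gene of the collecting duct, was past it at 0.78 (0.26 to 1.37), with 31.7 CPM in Enl-WT and 54.4 CPM in Enl-T1, and was at 0.42 (-0.02 to 0.85) over all ureteric-marker nuclei. There the rule marker Calb1 (0.62, 0.19 to 1.05) and Ptpn11 (-0.61, -1.22 to 0.02) were past it as well. Over all ureteric-marker nuclei the highest ratio was that of Axin2, a feedback target of Wnt signalling (chr11:108920349-108950783). It measured 78.7 CPM in Enl-WT and 118 CPM in Enl-T1, for a log2 ratio of 0.58 (0.28 to 0.88), and other nuclei showed 0.40, at 77.6 and 102 CPM. Lgr5, another Wnt target, lay at 0.36 (0.06 to 0.66). Of the 14 Wnt pathway genes, 10 lay above 0. In clusters 0 and 1 alone, Axin2 lay at 0.56 (0.21 to 0.92) and Lgr5 at 0.24 (-0.14 to 0.62). Others of that list, Nkd1 (0.08, -0.27 to 0.42) and Lef1 (-0.18, -0.82 to 0.42), had intervals that included 0 there.

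Among lower genes, Gfra1, the Gdnf co-receptor, measured 181 CPM in Enl-WT and 128 CPM in Enl-T1, for a log2 ratio of -0.50 (-0.74 to -0.26), with -0.33 in other nuclei. Tfcp2l1 lay at -0.37 (-0.64 to -0.10) with -0.59 in other nuclei, and Pkhd1 at -0.42 (-0.71 to -0.14) with -0.44. Esrp2 lay at -0.46 here and -0.45 there. In clusters 0 and 1 alone, Gfra1 lay at -0.48 (-0.75 to -0.20) and Pkhd1 at -0.37 (-0.69 to -0.05). The intervals of Tfcp2l1 (-0.24, -0.53 to 0.05) and Esrp2 (-0.35, -0.76 to 0.05) included 0 in those clusters. The differences of these genes over all ureteric-marker nuclei were of like size in the remaining nuclei. Pax2 was different in this, with 177 CPM in Enl-WT and 141 CPM in Enl-T1, for a log2 ratio of -0.32 (-0.55 to -0.09), and 0.01 in other nuclei. The difference between the cell groups was not tested. The targeted gene Mllt1 measured 80.2 and 65.6 CPM with a log2 ratio of -0.29 (-0.64 to 0.06), which does not check the insertion. Wt1 lay at 0.13 (-0.40 to 0.66) over all ureteric-marker nuclei and at -0.34 (-1.32 to 0.53) in clusters 0 and 1. With cluster 3 added, which was nearly all Enl-WT, Wt1 lay at -0.67.

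**Figure D5:**
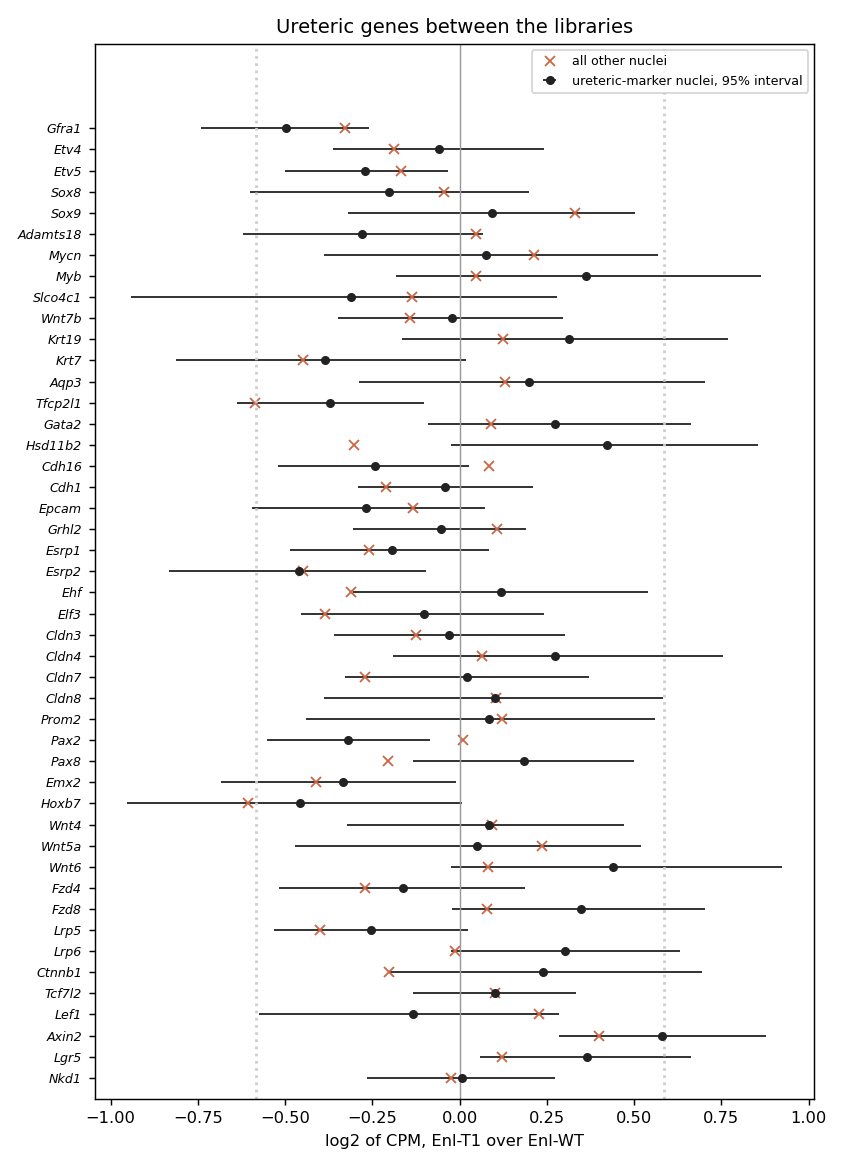
Log2 ratio of Enl-T1 over Enl-WT (x axis) for tip, trunk, epithelial regulator and Wnt pathway genes with at least 200 counts (y axis), in ureteric-marker nuclei (points, with exact counting intervals) and in all other nuclei (crosses). Dotted lines mark 1.5-fold, and no point lies beyond them. Axin2 is highest (0.58) and Gfra1 lowest (-0.50).

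Outside the lists, the genes furthest from 0 by their interval included several that also differed in other nuclei. On the higher side, Limd2, which shares its region with Gm10840, measured 21.8 CPM in Enl-WT and 48.5 CPM in Enl-T1 (log2 ratio 1.15, 0.66 to 1.71, and 0.37 in other nuclei), but 0.49 after every nucleus was thinned to 2000 fragments. Zzz3, a chromatin reader subunit, measured 54.7 and 93.8 CPM (0.78, and 0.45 in other nuclei), but lay at 0.35 in regions matched at 80% and at 0.49 in clusters 0 and 1. Tspear, an epithelial gene that was itself higher in ureteric-marker nuclei (log2 ratios of 0.82 and 1.56 over other nuclei), measured 41.2 and 69.4 CPM, a ratio of 0.75 (0.35 to 1.16), and other nuclei showed 0.01. Its direction turned, to -0.07, when nuclei were chosen by Ret, Wnt11, Wnt9b and Elf5 only. The remaining 7 (4931428L18Rik, L3mbtl3, Dpy19l3, Eme1, Nacc2, Kcnk2 and Gm28038) lay between 0.75 and 0.96, where Eme1 shares its region with Mrpl27 and Gm28038 with Dolk and Nup188.

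On the lower side, Wbp4, a splicing factor gene, measured 71.3 CPM in Enl-WT and 31.7 CPM in Enl-T1, for a log2 ratio of -1.17 (-1.66 to -0.74), and it was as low in other nuclei, at -0.97. Midn and Tmem52b were also lower in other nuclei, at -0.63 and -0.92, against -0.79 and -1.24 here. Tmem52b turned to 0.59 in regions matched at 80% between the libraries. Serhl lay at -1.20 (-1.80 to -0.65) and Hdac6, a deacetylase gene, at -1.08 (-1.64 to -0.55), while other nuclei showed 0.01 and -0.10. Among those, endothelial nuclei showed -0.36 (-0.97 to 0.16) for Serhl and -0.66 (-1.37 to -0.04) for Hdac6. Distal tubule nuclei showed -0.90 (-2.94 to 0.46) and -1.07 (-3.06 to 0.32), and nephron progenitor nuclei 0.07 and 0.32. Cebpb, Zfand5, Uhrf1bp1, Hs3st4 and Fance lay between -1.19 and -0.87. When nuclei were chosen by Ret, Wnt11, Wnt9b and Elf5 only, Serhl (-0.50), Hdac6 (-0.35), Zfand5 (-0.32), Fance (-0.39) and Hs3st4 (-0.10), and on the higher side Zzz3 (0.44), Dpy19l3 (0.28) and Eme1 (0.22), were no longer past 1.5-fold. Hoxa10 lay at -0.92 (-1.45 to -0.43) over all chosen nuclei and at -0.40 (-1.29 to 0.39) within clusters 0 and 1, in which cluster 3 has no part.

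Single regions matched at 80% with 200 counts numbered 7370. The furthest lower one lay in Ldhb, a lactate dehydrogenase gene (chr6:142501947-142503170), with 42.9 CPM in Enl-WT and 16.0 CPM in Enl-T1, for a log2 ratio of -1.42 (-2.07 to -0.79), and it was lower in other nuclei too, at -1.12. This region was itself more open in ureteric-marker nuclei, by 2.14 and 1.84. The promoter of Tfap2a, an AP-2 factor (chr13:40737877-40738897), was a ureteric-marker region, with 53.7 and 28.2 CPM against 10.7 and 9.15 CPM in other nuclei. It lay at -0.93 (-1.45 to -0.45) between the libraries, against -0.23 in other nuclei. The remaining 3 lower regions were promoters of Serhl and Hdac6 and a region in Fgfr2 nearest to Plekha1. The 5 higher regions were within 2 kb of a TSS of Mirg, Nnt, Eme1, Gm47861 and Dolk, with log2 ratios from 0.82 to 0.96.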

How the data were processed

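snATAC-seq of E15.5 kidneys gave 1 library for each group, Enl-WT and Enl-T1, and samples were grouped by their labels. The submitters' processing notes name Cell Ranger ATAC 2.1.0 and mm10. The authors deposited for each library the unnormalised counts of every barcode at the peaks called in it. Even numbers made up 91.1% (Enl-WT) and 88.0% (Enl-T1) of the values, so 2 counts stand for about 1 fragment. The libraries held 9628 and 13376 barcodes with 138176616 and 110265593 counts, and 169 barcode sequences were in both. Fragment-based filters of the study were not applied.

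Peaks of both libraries that overlapped were joined into 110706 shared regions, which held 88.8% and 94.9% of the counts. Counts were summed over nuclei, scaled to CPM in shared regions, and assigned to protein-coding genes by gene body and 2 kb upstream (GENCODE M21). Log2 ratios used a prior of 0.5 counts. Intervals were exact (binomial, Poisson or conditional) on fragments, taken as counts divided by 2. A gene was compared with other nuclei if it had 200 counts in each library over all kept nuclei, and between the libraries if the chosen nuclei of both had 200 counts in sum. Comparison nuclei had 4 of 8 markers of their list and the top 3% (distal tubule), 4% (endothelial) or 10% (nephron progenitor) of marker shares, with 183, 642 and 394 nuclei. Chosen nuclei were clustered by latent semantic indexing (components 2 to 20, regions open in 2% of them) and Leiden (leidenalg 0.10.2, resolution 0.5). A cluster's leading genes had the highest lower bounds over the other chosen nuclei. Motifs were searched in GRCm38.p6, the assembly of mm10. The ratio and the marker rule were tested on simulated data. With 1 library per group no test was run, and the comparison with other cell types was not tested.

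Named genes were those of the lists with 200 counts, the 10 highest and 10 lowest by the bound of the ratio between libraries, the 10 furthest above other nuclei, regions by the same rules, Mllt1 and Wt1. The motif list and the Hox genes were added after values were seen. The members and the lists were chosen with earlier results of these data known. Alternatives were other forms of the rule, regions, scaling, depth, count minima and clustering. Some listed genes, a motif and a region are not reported here.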

Additional observations from a re-analysis of the deposited data

Results flagged for a closer look

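Hs3st4, a heparan sulfate enzyme gene, moved in opposite directions between the libraries in ureteric-marker nuclei and in other nuclei. Ureteric-marker nuclei measured 47.8 CPM in Enl-WT and 23.2 CPM in Enl-T1, with a log2 ratio of -1.04 (-1.60 to -0.51). Other nuclei measured 34.3 and 42.1 CPM, a log2 ratio of 0.30 (0.21 to 0.39). Each group is 1 library, so the difference was not tested. The ratio was -1.12 (-1.73 to -0.52) in clusters 0 and 1 alone, -0.35 with 5 markers required, and -0.0998 when nuclei were chosen by Ret, Wnt11, Wnt9b and Elf5 only.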

How the results depend on the processing

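The share of chosen barcodes depends on the rule. In Enl-WT and Enl-T1 it was 2.54% and 2.53% with the top 5%, 4.84% and 3.60% with the top 10%, 1.87% and 0.892% with 5 markers, and 5.41% and 6.27% with Ret, Wnt11, Wnt9b and Elf5 alone, where the order of the libraries turned. It was 4.14% in Enl-WT with the top 7% taken within each library. With the top 7% of barcodes that have 4 markers, a reading added after the data were seen, it was 0.291% and 0.644%, and the order turned too. Thinning nuclei to 2000 fragments before the rule left 0.227% and 0.206%, only 19 genes with enough counts and 0 past 1.5-fold in either direction.

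The median of the independent ureteric genes in Enl-T1 was 1.63 with regions within 1 kb of the TSS and 1.57 in clusters 0 and 1, an alternative added after the data were seen. Counts of genes past 1.5-fold between the libraries were 489 higher and 471 lower of 15597 at a minimum of 50 counts, 4 and 25 of 4582 at a minimum 10 times higher, and 28 and 66 of 2783 after thinning. With matched regions 68 were higher and 107 lower of 9297, and near the TSS 48 higher and 199 lower of 8372. The median of trunk genes was -0.42 near the TSS, and that of tip genes -0.32 after thinning. Cluster 3 held 0% of either library after thinning, and 23.0% of regions at least 3-fold more open lay within 2 kb of a TSS. The causes were not tested.

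Single ratios turned sign after thinning before the rule, which left 45 nuclei, for Dpy19l3 (-0.51), Nacc2 (-0.0925), Gm28038 (-0.40), Hdac6 (0.66), Zfand5 (0.11), Uhrf1bp1 (1.01) and Fance (0.19). Tspear turned when nuclei were chosen by Ret, Wnt11, Wnt9b and Elf5 only (-0.0684), Tmem52b in matched regions (0.59) and left-out Wnt11 in Enl-WT with 3 of the other markers required (0.054). Median-of-ratios scaling, a lower ceiling on counts per barcode and leaving out nuclei past another rule moved no value beyond counting error, nor any count of genes by over 1.5 times. No paired analysis was possible because each group has 1 library, and replicates could not be left out. Depth limits the ratios: the chosen nuclei held 4640221 counts (Enl-WT) and 3442953 counts (Enl-T1) in shared regions.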
